A study of Mus musculus with 2 samples.

Results

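The Ifi200 cluster of mouse chromosome 1 encodes the AIM2-like receptors, and 10 of its genes are described here, chosen by symbol: Aim2, Ifi203, Ifi204, Ifi205, Ifi207, Ifi208, Ifi209, Ifi211, Ifi213 and Mndal. They are 10 of 55536 annotated genes, and each has a value in every table used. Their RNA was measured in the nucleoplasm of bone marrow-derived macrophages, which are macrophages grown in culture from marrow precursors of C57BL/6J mice. The cells had received Lipid A, the membrane anchor of lipopolysaccharide and a ligand of Toll-like receptor 4, at 100 ng/ml over 12 h. They were then kept without it for 12 h and harvested at 0 min of a second stimulation. Both libraries, biological replicates 2 and 1, share this genotype and treatment and carry total RNA depleted of ribosomal RNA. Replicate 2 was started from 500 ng of RNA and replicate 1 from 1 µg, so the starting amount and the replicate cannot be told apart. No untreated, continuously treated or restimulated group was analysed here, and age and sex were not recorded in the labels. The values are therefore levels and differences between libraries of 1 group, with no test between conditions.

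AIM2-like receptors are sensors of DNA that are found in mammals as a gene family whose size differs widely between species, and the mouse holds a large set of neighbouring paralogs. Most carry an N-terminal PYRIN domain, through which proteins of innate immunity bind each other, and a HIN-200 domain, which binds DNA. Aim2 binds double-stranded DNA in the cytosol and recruits the adaptor ASC, the product of Pycard, which activates caspase-1 in an inflammasome. Ifi204 has been described in mouse macrophages as a DNA sensor upstream of STING. Ifi203 and Ifi207 have been linked in mouse to the STING response to retroviruses, and Ifi205 to the control of Pycard expression in macrophages. Mndal is named for its likeness to the human myeloid nuclear differentiation antigen. Many genes of the cluster are induced by interferon in myeloid cells.

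All 10 members were present at a high level in the nucleoplasm. Each stood at 10 TPM or more in both libraries. TPM is a transcript level corrected for transcript length and scaled to a fixed total per library. Of 22028 protein-coding genes, 44.4% reached 1 TPM in both libraries and 19.7% reached 10 TPM. Ranked by mean TPM among the protein-coding genes, 9 of the 10 members were in the top 1000. Their median level was 122 TPM in replicate 2 and 132 in replicate 1, beside medians of 8.67 and 9.02 TPM over the protein-coding genes at 1 TPM or more in those libraries. Together the members summed to 1836 ± 198 TPM (SD, n = 2). The sum was 1112 TPM in a second deposited quantification and 6465 TPM when TPM was rescaled over protein-coding genes only. Of all expected counts, they took 0.445% in replicate 2 and 0.469% in replicate 1. The highest member exceeded the lowest 13.5-fold in replicate 2 and 9.76-fold in replicate 1. Ifi206, Ifi214 and Ifi202b lie among the members on chromosome 1 but are not counted in the 10. Their means were 39.0, 7.72 and 0.33 TPM.

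The libraries held 18612405 expected counts in replicate 2 and 22907877 in replicate 1 over annotated genes. All 10 macrophage markers examined, with Lyz2 the highest and Cd14 the lowest, stood at 10 TPM or more in both. Of 26 markers of B cells, T cells, neutrophils, dendritic cells, stromal cells and erythroid cells, 25 were under 1 TPM in both libraries and 4 had no count in either. The exception in these gene-level values was the dendritic cell marker Batf3, at 2.43 TPM in replicate 2 and 6.99 in replicate 1. In the second quantification the T cell marker Cd3d also passed 1 TPM, at 4.20 in replicate 2 and 1.76 in replicate 1. In these bulk libraries, fewer cells of a type and less RNA per cell cannot be told apart.

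The 4 highest members were Mndal, Ifi213, Ifi204 and Ifi203, each ranked within the top 100 of the protein-coding genes. Mndal (ENSMUSG00000090272.8, mm10 chr1:173849126-173942491, minus strand) had 412 TPM in replicate 2 and 426 in replicate 1, from 11062 and 13638 expected counts. Its mean of 418.7 ± 9.71 TPM (SD, n = 2) ranked 51st among protein-coding genes. The libraries lay close together for this gene, with a coefficient of variation of 2.32%. Ifi213 (ENSMUSG00000073491.11, chr1:173566283-173599274, minus strand) had 282 TPM in replicate 2 and 411 in replicate 1, from 15108 and 22007 expected counts. Its mean was 346 ± 91.0 TPM, and its coefficient of variation of 26.3% was the largest of the 10 members. The difference from Mndal was smaller than this spread, so these top members were not called apart. Mndal was nonetheless the higher in both libraries, also in a second deposited quantification.

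Ifi204, the DNA sensor named above (ENSMUSG00000073489.6, chr1:173747293-173766943, minus strand), had 275 TPM in replicate 2 and 335 in replicate 1, from 12265 and 17383 expected counts. Its mean of 305 ± 42.4 TPM did not stand apart from that of Ifi213. Ifi203 (ENSMUSG00000039997.16, chr1:173920407-173942672, minus strand) had 259 TPM in replicate 2 and 250.3 in replicate 1, from 17610 and 19319 expected counts. Ifi203 was below Ifi204 in both libraries, with means differing by more than the larger of both SDs, and its own mean was 254 ± 5.90 TPM.

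A middle group held Ifi211, Ifi207, Ifi209 and Aim2. Ifi211 (ENSMUSG00000026536.9, chr1:173896345-173913046, minus strand) had 121 TPM in replicate 2 and 143 in replicate 1, from 4647 and 6415 expected counts. Ifi207 (ENSMUSG00000073490.11, chr1:173723427-173741747, minus strand) had 123 TPM in replicate 2 and 121 in replicate 1, from 9637 and 11221 expected counts. These neighbours changed places between the libraries and cannot be ordered. Ifi209 (ENSMUSG00000043263.13, chr1:173630917-173647928, plus strand) had 84.3 TPM in replicate 2 and 96.1 in replicate 1, from 6589 and 8775 expected counts, below Ifi207 in both libraries.

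Aim2, the inflammasome sensor (ENSMUSG00000037860.15, chr1:173350879-173466040, plus strand), had 65.65 TPM in replicate 2 and 85.96 in replicate 1. These levels came from 1692 and 1880 expected counts, the fewest of any member. Its mean of 75.8 ± 14.4 TPM ranked 470th among protein-coding genes and lay below that of Ifi209 by only slightly more than the larger SD. The 2 lowest members followed. Ifi205 (ENSMUSG00000054203.7, chr1:174011998-174031810, minus strand) had 44.8 TPM in replicate 2 and 64.4 in replicate 1, from 2098 and 3369 expected counts. Ifi208 (ENSMUSG00000066677.12, chr1:173673675-173698395, plus strand) had 30.5 TPM in replicate 2 and 43.6 in replicate 1, from 2066 and 3475 expected counts. Each was below the member before it in both libraries by more than the spread.

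**Figure D1:**
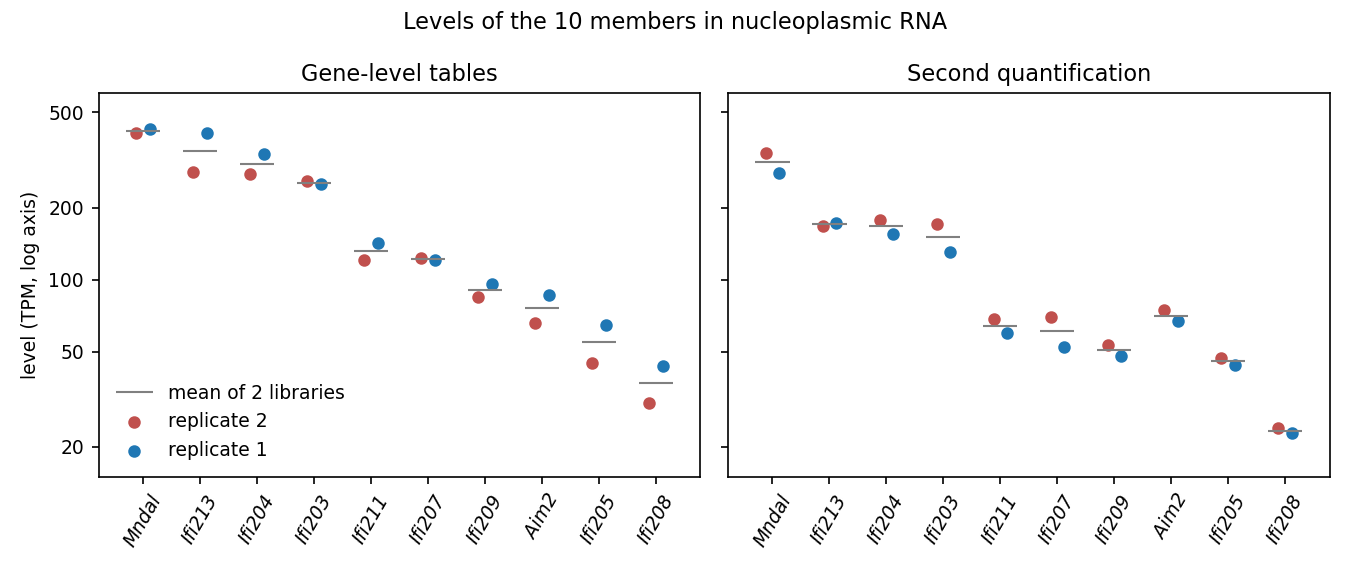
Level of each member (TPM, log axis) in replicate 2 (red) and replicate 1 (blue) in the gene-level tables (left) and the second quantification (right), with a bar at the mean of the 2 libraries. In the gene-level tables Mndal sits at 412 and 426 TPM and Ifi208 at 30.5 and 43.6 TPM; in the second quantification Aim2 stands above Ifi211, Ifi207 and Ifi209.

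The second quantification, which the deposited notes derive straight from the reads, gave nearly the same order by mean level. Mndal was again highest, at 337 TPM in replicate 2 and 280.2 in replicate 1, and Ifi208 lowest, at 24.0 and 22.7 TPM. Aim2 was the exception, since it stood in place 5 with 74.3 TPM in replicate 2 and 67.1 in replicate 1, above Ifi211, Ifi207 and Ifi209. Set against the gene-level table, the second quantification of the members was 0.654 times as high in replicate 2 and 0.510 times as high in replicate 1 (medians). Over all protein-coding genes at 1 TPM or more, those ratios were 0.752 and 0.559. All 10 members fell between the 10th and 90th percentiles of all such genes in both libraries, with Aim2 at the top of the members at 1.13 in replicate 2 and 0.780 in replicate 1.

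The cluster interval from the start of Aim2 to the end of Ifi205, chr1:173350879-174031810, spans 681 kb and holds 22 annotated genes. Of the members, 7 lie on the minus strand and 3, Aim2, Ifi209 and Ifi208, on the plus strand. The 12 other genes comprise 4 protein-coding genes, 6 pseudogenes and 2 microRNA genes. Among the protein-coding neighbours, Ifi206 had 36.2 TPM in replicate 2 and 41.75 in replicate 1, and its mean lay within the spread of that of Ifi208, the lowest member. Ifi214 was lower, at 7.43 TPM in replicate 2 and 8.01 in replicate 1. Ifi202b encodes p202, which lacks a PYRIN domain and holds back Aim2 in mouse. It had 0.33 TPM in each library, from 12 counts in replicate 2 and 14 in replicate 1. Cadm3, a cell adhesion gene that overlaps the start of Aim2 on the other strand, had 3 counts in replicate 2 and 0 in replicate 1. The pseudogene Ifi203-ps stood at 24.8 TPM in replicate 2 and 27.2 in replicate 1, the highest level of the 6 pseudogenes.

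**Figure D2:**
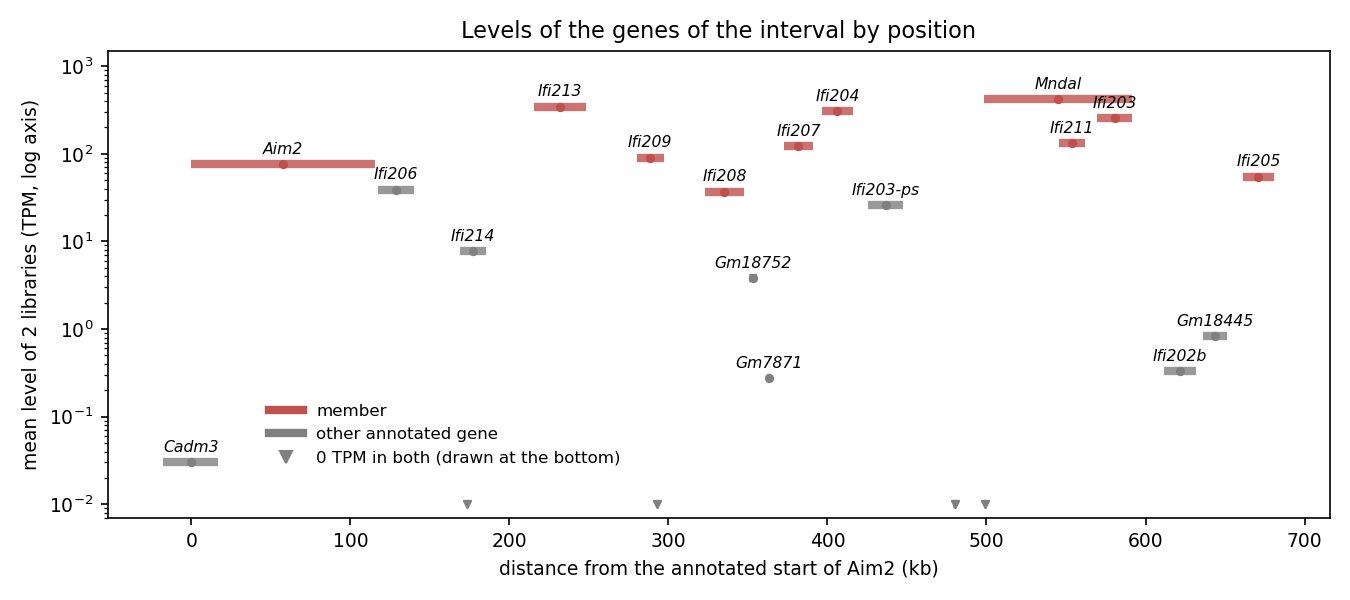
Mean level of the 2 libraries (TPM, log axis) of every annotated gene of the interval, drawn from its start to its end at its distance from the annotated start of Aim2 (kb). Members (red) lie between 37.1 and 418.7 TPM. Among the other genes (grey) Ifi206, at 39.0 TPM, lies just above the lowest member, and Ifi203-ps follows at 26.0 TPM.

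The members share sequence, which bears on how far reads can be told apart between them. Of the 31-base words in the annotated transcripts of Ifi211, 78.9% also occurred in transcripts of another gene, mainly Ifi205 with 49.5% and Ifi204 with 38.6%. Ifi209 shared 47.2%, almost all of it with Ifi214. Ifi208 and Ifi204 shared 34.6% each, Ifi208 mainly with Ifi213 and Ifi204 mainly with Ifi211. Mndal shared 28.7%, Ifi213 26.6%, Ifi205 22.1%, Ifi203 21.9% and Ifi207 14.8%. Aim2 was the most distinct, at 5.26%, and shared no word of 75 bases with any other gene. At 75 bases Ifi211 still shared 63.6% of its words, and Ifi209 23.1%.

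**Figure D3:**
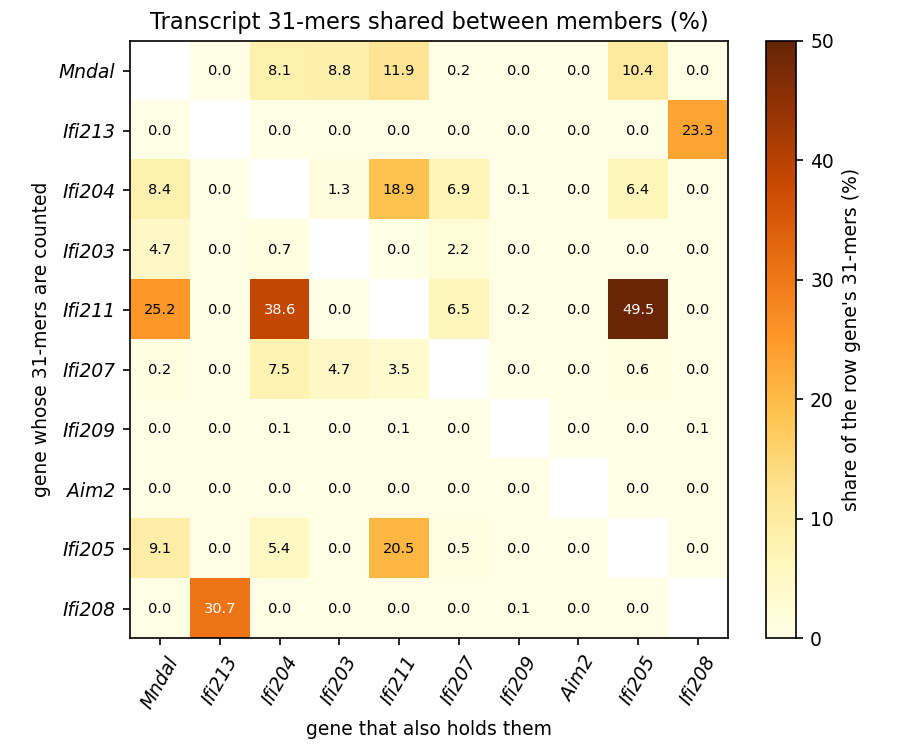
Share (%) of the 31-base words of each member's transcripts (rows) that also occur in transcripts of another member (columns). The largest cells are Ifi211 with Ifi205 (49.5%) and with Ifi204 (38.6%), and Ifi208 with Ifi213 (30.7%); the row and column of Aim2 are near 0.

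Long identical coding stretches joined some of the members. Ifi205 and Ifi211 had 495 consecutive coding bases in common, Ifi204 and Ifi211 had 223, and Ifi208 and Ifi213 had 149. Within the stretch shared by Ifi205 and Ifi211, 182 bases also occurred in Mndal. These 3 copies are on the minus strand of mm10, at chr1:174017465-174017646 in Ifi205, chr1:173901851-173902032 in Ifi211 and chr1:173862692-173862873 in Mndal. The stretch is shown because a read that falls inside it fits all 3 genes equally well. It is all in lower case, as every base is identical, and was read from the GENCODE M21 transcripts.
Ifi205, Ifi211 and Mndal: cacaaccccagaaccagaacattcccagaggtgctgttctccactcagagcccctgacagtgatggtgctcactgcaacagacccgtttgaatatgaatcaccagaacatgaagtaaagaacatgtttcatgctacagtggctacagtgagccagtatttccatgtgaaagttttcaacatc

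The gene-level tables carry the authors' own estimate of this uncertainty, a posterior SD of each count. It was largest for Ifi211, at 30.8 counts in replicate 2 and 36.6 in replicate 1, which is 0.662% and 0.570% of its counts. For Ifi205 it was 21.7 and 26.9 counts, or 1.03% and 0.800%. Aim2 had a posterior SD of 0 in both libraries. In the second quantification, values of Ifi214, the neighbour with most words in common with Ifi209, were 3.95 times as high in replicate 2 and 3.12 times as high in replicate 1 as in the gene-level tables, outside the range of the members. How reads that fit several genes were shared out is not given in the sources used here, and its part in these levels was not tested.

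The region before the transcription start was compared next. The window of 250 bases before to 50 after each RefSeq start (GRCm38.p6) was searched on both strands for GAAANNGAAA, the core of the interferon-stimulated response element, an element found before many genes that interferon induces. No window was available for Ifi204, so its promoter was not searched. The 9 other members have 11 windows, since Mndal and Ifi203 have 2 starts each. A match lay upstream of the start in 8 of these 11 windows, and a match was present in 3.44% of all 32851 windows. By gene, 7 members held one: Ifi213, Ifi208, Ifi207, Mndal, Ifi203, Ifi211 and Ifi205. The windows of Aim2 and Ifi209 and that of the other Ifi203 start, at base 173942672, held no match. The Aim2 window is set on a start at base 173420604. Aim2-204, the transcript with most Aim2 counts, is annotated from base 173455354, and the bases before that start were not searched. TTCNNNGAA, the letters of the gamma-activated site, occurred in none of the 9 members and in 8.30% of all windows. A match is a description of the letters and shows no binding.

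In each of the 7 members, 1 upstream match read in the direction of the gene. These 7 matches began between 134 and 35 bases before the start. The 40 bases around each are given in the direction of the gene, with the matching letters in capitals, to show how alike most of them are. The window of the other Mndal start, at base 173879958, held a match on the opposite strand that is not shown.
Ifi213, chr1:173599321-173599360, minus strand: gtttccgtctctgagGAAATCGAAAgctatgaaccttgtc
Ifi208, chr1:173673592-173673631, plus strand: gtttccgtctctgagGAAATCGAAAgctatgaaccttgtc
Mndal, chr1:173880199-173880238, minus strand: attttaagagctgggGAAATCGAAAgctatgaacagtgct
Ifi203, chr1:173942503-173942542, minus strand: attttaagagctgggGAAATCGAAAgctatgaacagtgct
Ifi207, chr1:173741826-173741865, minus strand: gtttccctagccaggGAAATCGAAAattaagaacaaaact
Ifi211, chr1:173913059-173913098, minus strand: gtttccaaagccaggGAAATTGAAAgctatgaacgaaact
Ifi205, chr1:174031865-174031904, minus strand: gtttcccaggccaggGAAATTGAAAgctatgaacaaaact
The 40 bases of Ifi213 and Ifi208 were identical, as were those of Mndal and Ifi203. By mean level Ifi213 was the second highest member and Ifi208 the lowest. Any link between these letters and the levels was not tested. Among the neighbours, Ifi206 and Ifi214 also held a match and Ifi202b did not.

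Mndal and Ifi203 met at the level of transcripts as well. The transcript with the largest share of Mndal in the tables with expected counts, Mndal-201, is annotated from chr1:173857221-173942491 and starts with an exon of 37 bases at chr1:173942455-173942491 that lies inside exons of Ifi203 on the same strand. Its second exon lies 62464 bases further on, at chr1:173879925-173879990, so the intron between them spans all of Ifi211 and most of Ifi203. Mndal-201 had 133 TPM in replicate 2 and 131 in replicate 1, which was 32.3% and 30.9% of the Mndal transcript level. The retained-intron Mndal-203 was highest in the second quantification, with 78.4 TPM in replicate 2 and 77.4 in replicate 1, and Mndal-201 had 76.6 and 57.5 TPM. Its start lies beside 1 of the RefSeq starts of Ifi203, at base 173942492, the other being at base 173942672, whereas the RefSeq starts of Mndal are at bases 173880187 and 173879958.

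The members carry 43 annotated transcripts, 24 protein-coding, 7 with a retained intron, 10 processed transcripts without a coding frame and 2 targets of nonsense-mediated decay. All but Ifi208-202 had a count in at least 1 library. Protein-coding transcripts held 67.3% of the members' transcript TPM in replicate 2 and 67.7% in replicate 1, below the 76.7% and 74.7% over all protein-coding genes at 1 TPM or more. Taken gene by gene, the members' median was 71.1% in replicate 2 and 74.5% in replicate 1, close to the medians of 73.7% and 74.4% over those genes. Retained-intron transcripts held 26.3% of the members' transcript TPM in replicate 2 and 25.2% in replicate 1, against 16.5% and 18.0% over all those genes. For the 6 members with such a transcript, the median share was 31.4% and 28.7%, near the 30.6% and 29.2% of the 6276 genes that have one. The tables assign reads to annotated transcripts only, so unspliced precursors were not measured apart.

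**Figure D4:**
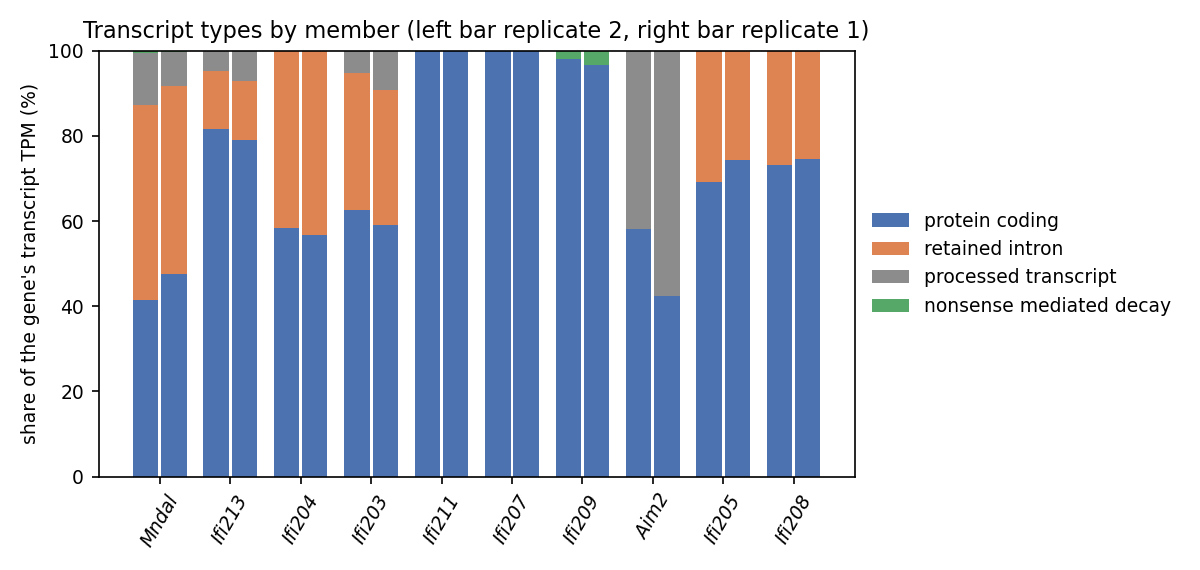
Share (%) of each member's transcript TPM held by transcripts annotated as protein coding (blue), retained intron (orange), processed transcript (grey) and nonsense-mediated decay (green), with replicate 2 as the left bar and replicate 1 as the right bar of each pair. Mndal, Ifi204 and Ifi203 show the largest retained-intron shares, and Ifi211 and Ifi207 are wholly protein coding.

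By TPM in the tables with expected counts, retained-intron transcripts weighed most among the 4 highest members, other than Ifi213. In Mndal they held 45.9% of the transcript level in replicate 2 and 44.2% in replicate 1, in the transcripts Mndal-205 and Mndal-203. In Ifi204 the retained-intron transcript Ifi204-202 held 41.5% in replicate 2 and 43.4% in replicate 1, at 114 and 145 TPM. The protein-coding Ifi204-201 was the higher of the pair, with 161 TPM in replicate 2 and 190 in replicate 1. In Ifi203 the top transcript itself, Ifi203-207, is annotated with a retained intron, and it had 82.7 TPM in replicate 2 and 79.6 in replicate 1. These shares differed by less than 2 percentage points between the libraries.

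In the second quantification the retained-intron share was larger for most members that have such a transcript. It was 42.8% and 44.0% for Ifi203, 49.8% and 49.9% for Ifi204, and 45.4% and 50.2% for Mndal, in replicates 2 and 1. Ifi205-202 held 30.9% of Ifi205 in replicate 2 and 25.6% in replicate 1, and 54.4% and 49.9% in the second quantification. Ifi208-203 held 26.9% of Ifi208 in replicate 2 and 25.4% in replicate 1, and 49.8% and 44.9% in the second quantification. Ifi213 had 13.6% and 13.9%, with similar shares in the second quantification. In the tables with expected counts, the top transcripts of these 3 genes were protein-coding: Ifi205-201, Ifi208-201 and Ifi213-202. Ifi205-202 exceeded Ifi205-201 in replicate 2 of the second quantification, at 25.5 and 21.4 TPM.

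Some transcripts differed more between the libraries than their genes did. Ifi213-205, a short protein-coding transcript of 643 bases, had 44.9 TPM in replicate 2 and 124 in replicate 1, from 471 and 1470 expected counts. It held most of the TPM difference in Ifi213 between the libraries, though not of the difference in expected counts. The top transcript of Ifi213, Ifi213-202, had 148 TPM in replicate 2 and 160 in replicate 1. Ifi203-203 had 31.6 TPM in replicate 2 and 7.43 in replicate 1, while Ifi203 as a whole was nearly level; the second quantification gave this transcript under 1 TPM in both libraries. Mndal-210 had 21.5 TPM in replicate 2 and no count in replicate 1.

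Aim2 was spread over several short transcripts. Its top transcript in the tables with expected counts, the protein-coding Aim2-204, starts at base 173455354 and had 30.4 TPM in replicate 2 and 26.2 in replicate 1, from 1388 and 1403 expected counts. It held 82.0% of Aim2 counts in replicate 2 and 74.6% in replicate 1, but only 46.3% and 30.5% of Aim2 TPM. The processed transcripts Aim2-206, of 383 bases, and Aim2-201, of 372 bases, took much of the remaining TPM, with 19.0 and 8.48 TPM in replicate 2 and 29.0 and 20.2 TPM in replicate 1. These came from 79 and 33 counts in replicate 2 and 128 and 83 counts in replicate 1. The effective length used to turn Aim2 counts into TPM was accordingly 1051 bases in replicate 2 and 753 bases in replicate 1, a ratio of 1.40. The 10th to 90th percentile of that ratio over protein-coding genes at 1 TPM or more ran from 0.885 to 1.14. In the second quantification Aim2-203, a protein-coding transcript at 0 TPM in replicate 2 and 0.58 in replicate 1 here, was the highest instead, with 19.9 and 15.5 TPM, above Aim2-204 with 15.1 and 9.14 TPM. Aim2-202, the transcript that carries the gene's annotated start, had only 1.77 TPM in replicate 2 and 1.97 in replicate 1.

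Ifi211, Ifi207 and Ifi209 were nearly single-transcript genes in the gene-level set. Ifi211 has 1 annotated transcript, Ifi211-201. Ifi207-201 held 100% of Ifi207 in replicate 2 and 99.9% in replicate 1. Ifi209-201 held 98.1% of Ifi209 in replicate 2 and 96.7% in replicate 1. The second quantification spread the last pair further, with 14.6 and 6.80 TPM on Ifi207-202 and 11.5 and 14.98 TPM on Ifi209-202, a target of nonsense-mediated decay, in replicates 2 and 1.

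Differences between the libraries were then measured on scaled expected counts, as log2 ratios of replicate 2 over replicate 1 with exact 95% counting intervals. Each ratio sets 1 library against 1 other, so no p-value was computed, and the interval covers counting error only. None of the 10 members lay 2-fold or more apart at a mean count of 100 or more, beside 204 of 10198 genes, or 2%, in the same table. In the second quantification 500 genes and no member lay that far apart, and the number of genes compared there is not given. At a share such as 2%, a count of 0 among 10 members says little about them. Of the members, 3 were higher and 7 lower in replicate 2, beside 5013 higher and 5185 lower of all 10198 genes. The members' median log2 ratio was -0.18, beside -0.01 over those genes. All 10 lay between the 5th and 95th percentiles of those genes, -0.62 and 0.54.

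The lowest members differed most. Ifi208 had a log2 ratio of -0.49 (95% counting interval -0.57 to -0.42) and Ifi205 one of -0.43 (-0.51 to -0.35). Ifi213 followed at -0.29, Ifi204 at -0.25, Ifi211 at -0.21 and Ifi209 at -0.16. Mndal was nearly level at -0.05 (-0.08 to -0.01). Ifi203 was higher in replicate 2 at 0.12 (0.09 to 0.15), and Aim2 at 0.10 (0.01 to 0.20). For Aim2 the TPM ran the other way, with a log2 TPM ratio of -0.39, alongside the change in effective length given above. Ifi207, at 0.04, was the only member whose interval included 0 and the only one whose sign differed in the second quantification, where it was -0.05. Ifi203 and Aim2 were level there, at 0.01 each, and Mndal was lower in replicate 2 at -0.18. These directions are those of scaled counts. By TPM in the second quantification, every member but Ifi213 was higher in replicate 2. The members summed to 1191 TPM there in replicate 2 and 1032 in replicate 1, beside 1696 and 1976 in the gene-level tables.

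**Figure D5:**
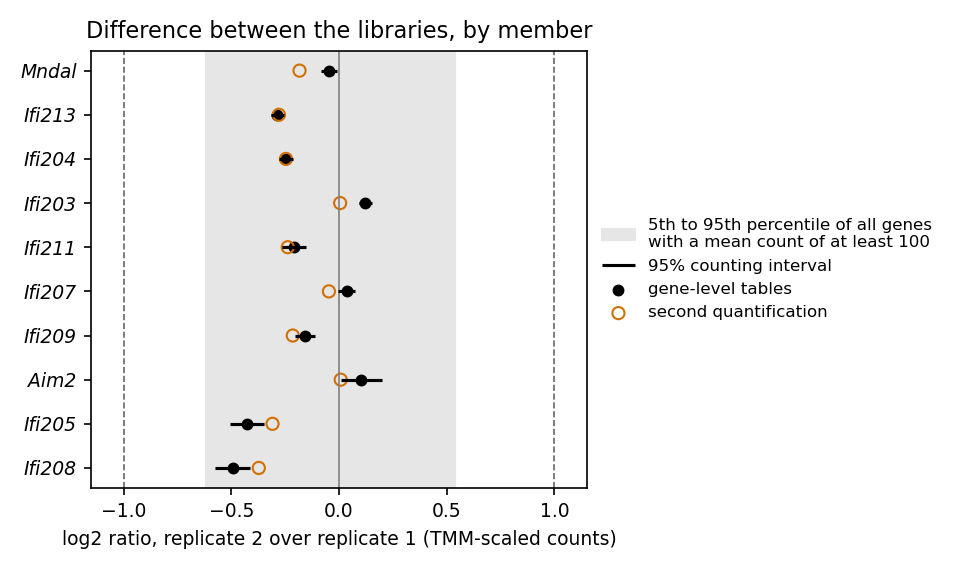
Log2 ratio of replicate 2 over replicate 1 for each member in the gene-level tables (filled, with 95% counting interval) and in the second quantification (open). The members run from -0.49 (Ifi208) to 0.12 (Ifi203), all inside the grey band that spans the 5th to 95th percentile of all genes (-0.62 to 0.54) and well inside the dashed 2-fold lines.

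Genes that act with the family were read from 3 lists: the inflammasome, cytosolic DNA sensing and interferon signalling. All 14 inflammasome and pyroptosis genes stood at 1 TPM or more in both libraries and 11 at 10 TPM or more. The highest was Gsdmd, the pore-forming protein cleaved in pyroptosis, at 110 ± 34.1 TPM, and the lowest Nlrc4, at 4.68 ± 0.438 TPM (SD, n = 2 each). The direct partners of Aim2 were singled out for their role after their values had been seen. Pycard, which encodes ASC, had 14.0 TPM in replicate 2 and 13.2 in replicate 1, and Casp1 had 43.4 and 37.4 TPM. Both were below the gene total of Aim2 in each library. Protein-coding transcripts held only 58.1% of that Aim2 total in replicate 2 and 42.4% in replicate 1. The transcript types of Pycard and Casp1 were not compared.

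Of 20 other genes of cytosolic DNA sensing, 19 stood at 1 TPM or more in both libraries and 10 at 10 TPM or more. Samhd1, a hydrolase of deoxynucleoside triphosphates that limits viral DNA synthesis, was the highest at 486 ± 95.4 TPM. Xrcc5 was listed at 0 in both gene-level tables. Cgas and Sting1, the enzyme and the adaptor of the STING response in which Ifi204 has been placed, were singled out likewise. Cgas had 5.60 TPM in replicate 2 and 7.12 in replicate 1, and Sting1 had 8.83 and 8.86 TPM. All 10 members of the cluster stood above both genes in each library.

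Of 14 interferon signalling genes, 13 stood at 1 TPM or more in both libraries and 12 at 10 TPM or more. Ifnb1, the gene of interferon beta, was the lowest, with 0.69 TPM in replicate 2 and 3.34 in replicate 1, from 9 and 50 counts. At a mean count of 100 or more, 12 of 13 genes of this list were lower in replicate 2 (median log2 ratio -0.43). Over all 10198 genes at that count, 5185 were lower, with a median of -0.01. Of the inflammasome list 8 of 14 were lower, with a median of -0.15, and of the DNA sensing list 13 of 17, with a median of -0.28. All 10 macrophage markers were also lower in replicate 2, with a median of -0.32. The part of these shifts in the members' own ratios was not tested. Of the pathway lists, Socs1, an inhibitor of interferon signalling, and Tlr9, the endosomal DNA receptor, were the genes more than 2-fold apart at a mean count of 100 or more, at -1.39 and -1.29, both lower in replicate 2.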

How the data were processed

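Total RNA depleted of ribosomal RNA, from the nucleoplasm of macrophages, was measured in 2 libraries of 1 group. The authors deposited gene-level and transcript-level tables of expected counts and TPM, and a second transcript-level table with estimated counts beside TPM. The assembly is mm10 with GENCODE M21, per the deposited notes. The sources used here do not give the quantification programs, their versions or the use of strand, so values of overlapping, antisense and near-identical genes are uncertain. The authors' posterior SD of the count was used as deposited. The members, gene lists and tests were chosen with earlier results of these data known.

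Per library, 26345 entries that name no annotated gene took 0.336% of expected counts in replicate 2 and 1.01% in replicate 1, and library sizes exclude them. The second table has no value for 86 genes. Its transcript values were summed per gene. After rounding expected counts to whole numbers, log2 ratios used TMM factors from edgeR 4.0.16 (R 4.3.3) over 14892 genes that pass filterByExpr and a prior count of 0.5. A gene counted as apart at 2-fold or more either way (log2 ratio of 1) and a mean count of at least 100. DESeq2 1.42.0 size factors were an alternative. The ratio step was tested on simulated data. Median log2 levels used a pseudocount of 0.1.

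Neighbouring members were called not apart where the means differed by no more than the larger SD or the order differed between libraries. All members, all other protein-coding genes of the interval, the highest and lowest gene of each list and the top transcript of each member were named. 1 gene that this rule takes is not reported here. Further genes and transcripts were named after their values were seen. Words of 31 and 75 bases were compared over GENCODE M21 transcripts, both strands. RefSeq windows matched 9 of 10 members. Python 3.11.15, numpy 2.4.6 and pandas 2.3.3 were used. The files show no molecular identifiers. The labels name separate biosamples of 1 strain, so the SD over 2 libraries may be partly technical.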

Additional observations from a re-analysis of the deposited data

How the results depend on the processing

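All 10 members also passed a minimum of 10 TPM in both libraries, and 1 TPM in both libraries of the second quantification. Leaving out either replicate could not lower this count, since both libraries had already passed. Their summed level of 1836 TPM was 1112 in the second quantification and 6465 with TPM over protein-coding genes only, and the median log2 level of 6.98 was 6.08 and 8.79. Without 1 replicate each, the values are those of the other library alone. The sum then ran from 1696 to 1976, the median log2 level from 6.93 to 7.04 and the protein-coding transcript share from 67.3% to 67.7%. That share was 56.7% in the second quantification, against 67.5%. No member lay apart under any alternative, while the count over all genes, 204, was 330 at a mean count minimum of 50 and 500 in the second quantification. DESeq2 size factors, library totals, no filter for TMM and a prior count of 2 kept the sign of all 10 log2 ratios, and the second quantification that of 9. The level of a single member was 0.487 to 0.932 times the reported one in the second quantification and 3.51 to 3.54 times over protein-coding genes only. Rescaling over protein-coding genes only multiplies every gene of a library by the same factor. The cause of the shift in the second quantification was not tested. No paired analysis was possible because all samples belong to 1 group. With 2 libraries, an SD is itself imprecise, and differences under 2-fold were not called.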

Other observations

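The 2 microRNA genes of the cluster interval differed between the quantifications. Gm44339 lies inside Ifi209 on the other strand, at mm10 chr1:173643511-173643594, and Gm44481 inside Ifi214 on the other strand, at chr1:173524086-173524169. Both had 0 counts in the gene-level tables of both libraries. In the second quantification Gm44339 had 239 TPM in replicate 2 and 80.9 in replicate 1, from 402 and 143 estimated counts, and Gm44481 had 26.3 and 2.40 TPM, from 44.3 and 4.26 estimated counts. Ifi209, which surrounds Gm44339, had 53.1 TPM in replicate 2 and 48.1 in replicate 1 in that quantification, from 10153.9 and 10659.5 estimated counts. TPM is corrected for length, and Gm44339 is annotated over far fewer bases than Ifi209. Its higher TPM in both libraries thus came from far fewer counts.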
